A study of Homo sapiens with 6 samples.

Results

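The guanylate-binding protein genes GBP1, GBP2, GBP3, GBP4 and GBP5 were examined in U-2 OS cells with and without the RNA-binding protein SFPQ. Members were the rows of the count table whose Ensembl gene identifier carries one of these 5 symbols, and all 5 were found among 60664 genes. U-2 OS is a human osteosarcoma cell line, labelled here as polyploid and of bone. The siSFPQ cells received siRNA against SFPQ at 30 nM by lipid transfection and the siCTRL cells received control siRNA, with 3 libraries of polyadenylated RNA in each condition, which the study calls biological triplicates. The time between transfection and harvest was not given in the sources used here, and a single cell line was profiled. The study asked which genes change expression when SFPQ is depleted.

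Guanylate-binding proteins are large GTPases of the dynamin superfamily. They are among the most strongly induced proteins after interferon-gamma, whose receptor activates the kinases JAK1 and JAK2 and, further on, transcription factors such as IRF1, which act through elements named GAS and ISRE in front of GBP genes. The proteins assemble on the membranes of intracellular bacteria and parasites, where GBP1 to GBP4 help to recruit caspase-4, and GBP2 and GBP5 also restrain the protease furin. A lipid anchor on GBP1, GBP2 and GBP5 tethers these to membranes.

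Mean normalized counts were higher after SFPQ depletion for each of the 5 genes, and 4 of them passed the test, as did 22.4% of all genes tested in this direction. GBP4 and GBP5 were barely detected in siCTRL and rose 4.89-fold and 4.65-fold. GBP3, the gene with by far the most reads, rose 1.85-fold without overlap between the conditions. GBP2 passed the test at 1.36-fold with overlapping libraries, and its call was lost in several other fits. GBP1, also at 1.36-fold, was not called.

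The genes lie in a cluster on the minus strand of chromosome 1, where another gene of the family, GBP7, overlaps GBP2 and reaches into the gap before GBP4. In GENCODE release 44 on GRCh38, GBP3 (ENSG00000117226) spans 89006679 to 89022894 and GBP1 (ENSG00000117228) spans 89051882 to 89065360. GBP2 (ENSG00000162645) spans 89106132 to 89150456, GBP4 (ENSG00000162654) spans 89181144 to 89198942 and GBP5 (ENSG00000154451) spans 89256189 to 89272860. All 5 are protein-coding, and their counts are sums over whole genes, so no exon or transcript can be singled out.

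The 250 bases in front of the start site are printed for GBP3, GBP1 and GBP4. ISRE and GAS elements are known in front of GBP start sites. RefSeq gave a promoter for these 3 members (GRCh38.p14, minus strand, chr1:89022867-89023116 for GBP3, chr1:89065209-89065458 for GBP1 and chr1:89198943-89199192 for GBP4). GBP2 and GBP5 had no entry in the table used. Both strands were searched for an ISRE core, GAAANNGAAA, and a GAS element, TTCNNNGAA, where N is any base. Capitals mark the matches.
GBP3: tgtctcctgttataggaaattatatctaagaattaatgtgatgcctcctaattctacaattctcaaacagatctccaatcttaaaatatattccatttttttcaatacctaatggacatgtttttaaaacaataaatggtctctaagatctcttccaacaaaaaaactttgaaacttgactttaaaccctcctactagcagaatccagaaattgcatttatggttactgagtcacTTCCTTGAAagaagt
GBP1: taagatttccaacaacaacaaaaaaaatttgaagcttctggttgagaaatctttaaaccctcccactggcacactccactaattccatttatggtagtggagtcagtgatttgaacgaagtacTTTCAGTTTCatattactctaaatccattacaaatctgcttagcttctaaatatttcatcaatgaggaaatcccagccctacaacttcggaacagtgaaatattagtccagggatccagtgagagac
GBP4: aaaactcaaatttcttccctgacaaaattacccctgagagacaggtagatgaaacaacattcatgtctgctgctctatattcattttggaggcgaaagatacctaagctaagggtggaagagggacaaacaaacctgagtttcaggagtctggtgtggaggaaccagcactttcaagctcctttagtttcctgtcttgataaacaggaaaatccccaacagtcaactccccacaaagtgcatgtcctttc

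The GBP1 stretch held an ISRE core on the opposite strand, 127 to 118 bases before the start. The GBP3 stretch held a GAS element 15 to 7 bases before the start. Starts are those of RefSeq, which for GBP3 and GBP1 lie inside the GENCODE spans given above, so both matches fall within those spans. The GBP4 stretch held neither string of letters in this window. Among 35116 promoters of the same length, 3.02% held the ISRE core and 6.57% held the GAS element. These matches describe the sequence and are not evidence of binding.

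Total counts were 46142855 to 47119203 in the siCTRL libraries and 43469321 to 45543610 in the siSFPQ libraries, where 3 counts, taken as the limit that a count of 0 allows, equal 0.0637 to 0.069 CPM (counts scaled to 1 M counts per library). Intervals on single counts cover counting error only. SFPQ itself, the targeted gene, had 22338, 23139 and 21753 counts in siCTRL and 3140, 3863 and 3151 in siSFPQ. Its log2 fold change was -2.73 (SE 0.05, edgeR's quasi-likelihood test, Benjamini-Hochberg adjusted p = 6.34e-30), in the direction of the labels. Pairs of libraries of the same condition differed by more than counting noise, with a chi-square of 3.77 to 5.49 per gene, and no 2 libraries appeared to be the same library deposited again.

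In the following, a gene is called higher or lower at a Benjamini-Hochberg adjusted p under 0.05 over the 29022 genes tested with edgeR's quasi-likelihood test. Normalized counts are counts scaled to a library of the geometric mean size. Changes were common in these cells: the higher calls made up 22.4% of the genes tested and the lower calls 22.1%. The study's stricter limit, a log2 fold change over 1.5 besides the adjusted p, was passed upward by 5.54%. In 26.9% of the genes, every siSFPQ library lay above every siCTRL library. Against this background, 4 of the 5 GBP genes were called higher and 0 lower, 2 passed the stricter limit, and 3 had no overlap between the conditions. The median log2 fold change was 0.89 over the 5 genes and 0.02 over all genes tested. The p-values measure the spread between these libraries, and bulk RNA cannot tell more cells expressing a gene from more RNA per cell.

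**Figure D1:**
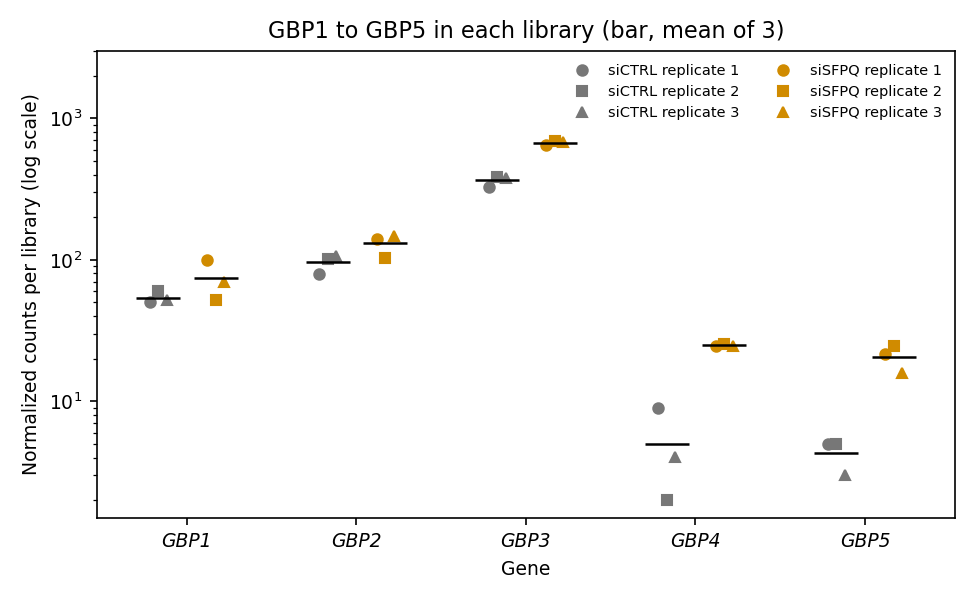
Normalized counts per library (log scale) of GBP1 to GBP5, with grey points for siCTRL, orange points for siSFPQ, a marker shape for each replicate number and a bar at the mean of 3 libraries. GBP3, GBP4 and GBP5 have no overlap between the conditions, while the lowest siSFPQ library of GBP1 and of GBP2 lies among the siCTRL libraries.

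GBP4 and GBP5 had the largest relative changes of the 5, and their order depended on which library was left out. GBP4 encodes a guanylate-binding protein that also restrains the antiviral factor IRF7. It had 9, 2 and 4 counts in siCTRL and 24, 26 and 25 counts in siSFPQ. The siSFPQ libraries were nearly equal and the siCTRL libraries were few and scattered, with an exact Poisson interval (95%) of 0.242 to 7.22 around the lowest count of 2. The normalized counts were 5.01 ± 3.61 (SD, n = 3) and 25.0 ± 0.427 (SD, n = 3). The log2 fold change was 2.29 (SE 0.51, 95% interval 1.25 to 3.33, adjusted p = 0.000353, edgeR), a fold change of 4.89 with an interval of 2.38 to 10.0. The size rested on the siCTRL libraries: it was 8.01-fold without siCTRL replicate 1, the one with 9 counts, and 3.78-fold without siCTRL replicate 2, the one with 2 counts.

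GBP5, a geranylgeranylated member known to promote inflammasome assembly and to interfere with furin, changed by a like amount from a like level. It had 5, 5 and 3 counts in siCTRL and 21, 25 and 16 counts in siSFPQ. Every siSFPQ library was above every siCTRL library. The normalized counts were 4.34 ± 1.15 and 20.6 ± 4.43 (SD, n = 3 each), at a log2 fold change of 2.22 (SE 0.54, 95% interval 1.13 to 3.31, adjusted p = 0.000867, edgeR) or 4.65-fold (2.18 to 9.90). Leaving out each library in turn gave log2 fold changes of 2.02 to 2.39, called each time. GBP4 and GBP5 both averaged under 1 CPM over the libraries, and their fitted fold changes carry wide intervals.

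GBP3, which can act with GBP1 in host defence, was the most abundant member and the most precisely measured. It had 327, 382 and 379 counts in siCTRL and 627, 703 and 689 counts in siSFPQ. The libraries of each condition lay close together and the conditions were far apart. The normalized counts rose from 363 ± 30.8 to 671 ± 21.8 (SD, n = 3 each), at a log2 fold change of 0.89 (SE 0.08, 95% interval 0.71 to 1.06, adjusted p = 9.31e-11, edgeR) or 1.85-fold (1.64 to 2.08). Its upper limit of 1.06 lies below the lower limits of GBP4 and GBP5, but that difference was not tested.

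GBP2, a geranylgeranylated member that joins GBP1 on bacterial surfaces, had 79, 102 and 106 counts in siCTRL and 136, 106 and 149 counts in siSFPQ. Replicates 1 and 3 of siSFPQ were above every siCTRL library, while replicate 2, at 103.7 normalized counts, was below siCTRL replicate 3, at 106.3. The normalized counts were 95.8 ± 14.6 and 130 ± 23.3 (SD, n = 3 each), with a log2 fold change of 0.44 (SE 0.17, 95% interval 0.10 to 0.78, adjusted p = 0.0314, edgeR). This call was kept in 5 of 6 other fits of all libraries and in 3 of 6 that left out a library. It was lost in DESeq2 (adjusted p = 0.083). In edgeR it was lost without siCTRL replicate 1 (adjusted p = 0.133), siSFPQ replicate 1 (0.119) or siSFPQ replicate 3 (0.158). The log2 fold changes where it was lost lay between 0.32 and 0.44. GBP2 also shares 621 exon bases, 8.60% of its exons, with GBP7 on the same strand. GBP7 had 0 counts in every library, which does not show how reads in the shared stretch were counted.

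GBP1, the farnesylated member that starts the protein coat on bacteria, was not called. It had 50, 60 and 52 counts in siCTRL and 97, 53 and 71 counts in siSFPQ. The siCTRL libraries were tight, with a variance of 0.519 times the mean count, while the siSFPQ libraries ran from the siCTRL level upward with a variance of 6.64 times the mean. The normalized counts were 54.1 ± 5.23 and 74.0 ± 24.3 (SD, n = 3 each), with a log2 fold change of 0.45 (SE 0.23, 95% interval -0.02 to 0.91, adjusted p = 0.116, edgeR). The interval does not exclude an increase as large as that of GBP2. Without siSFPQ replicate 2 GBP1 was called, at a log2 fold change of 0.63 (adjusted p = 0.0352, edgeR), 1.55-fold.

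Levels between genes were compared as CPM per kilobase of annotated exon. In siCTRL the order was GBP3 at 1.85 ± 0.157, GBP2 at 0.290 ± 0.0441, GBP1 at 0.194 ± 0.0187, GBP4 at 0.0178 ± 0.0129 and GBP5 at 0.00865 ± 0.0023 (CPM per kb, mean ± SD, n = 3). GBP3 stood far above the rest. GBP2 and GBP1 did not overlap by this length, but did overlap when the length of the MANE Select transcript was used instead, a comparison added after the data were seen. GBP4 and GBP5 overlapped in siCTRL.

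In siSFPQ the order of the mean levels stayed the same. GBP3 was at 3.43 ± 0.111, GBP2 at 0.394 ± 0.0704, GBP1 at 0.265 ± 0.0871, GBP4 at 0.0888 ± 0.00152 and GBP5 at 0.0411 ± 0.00884 (CPM per kb, mean ± SD, n = 3). GBP2 and GBP1 overlapped between libraries here, and every siSFPQ library of GBP4 lay above every siSFPQ library of GBP5. Thus GBP4 and GBP5, although they had the largest fold changes, remained below the siCTRL level of GBP1 and GBP2.

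Summed over the 5 genes, normalized counts were 470.9, 551.0 and 545.5 in siCTRL and 933.4, 893.4 and 937.0 in siSFPQ. The conditions did not overlap, and the means of 522 ± 44.7 and 921 ± 24.2 (SD, n = 3 each) differed 1.76-fold. GBP3 accounted for 77.3% of this difference, GBP2 for 8.65%, GBP4 for 5.0%, GBP1 for 4.99% and GBP5 for 4.09%. The increase in GBP reads was therefore mostly an increase in GBP3 reads.

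**Figure D2:**
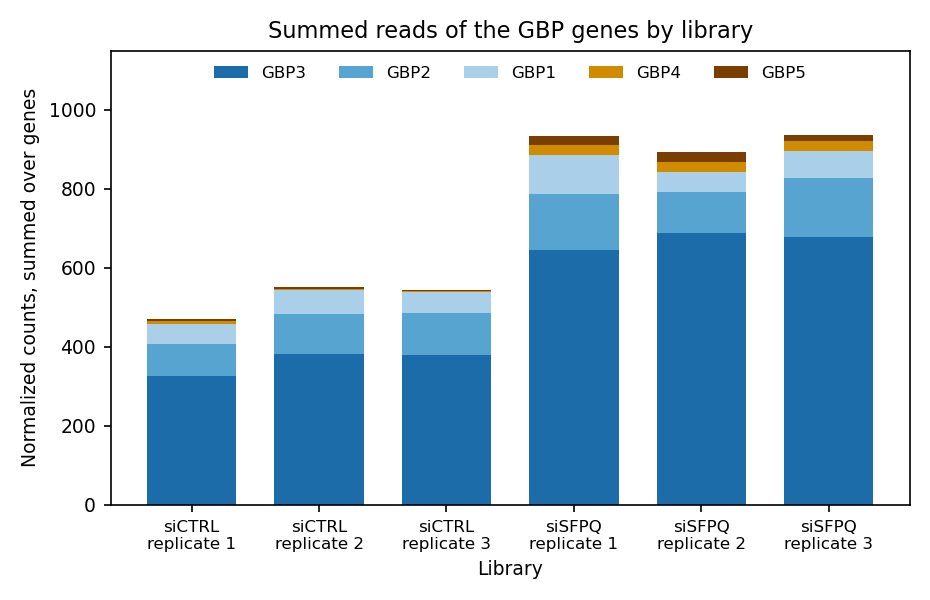
Normalized counts per library summed over the GBP genes, with a bar for each of the 6 libraries stacked by gene. The siCTRL bars reach 470.9 to 551.0 and the siSFPQ bars 893.4 to 937.0, and GBP3 is the largest block in each bar.

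The make-up of the summed reads also shifted for the rare members. GBP4 held 1.00% ± 0.81 of them in siCTRL and 2.71% ± 0.119 in siSFPQ, and GBP5 held 0.841% ± 0.263 and 2.25% ± 0.531 (SD, n = 3 each), both without overlap. The share of GBP2 was lower, at 18.3% ± 1.35 and 14.1% ± 2.19, also without overlap. The shares of GBP3 (69.5% ± 0.176 and 72.9% ± 3.87) and GBP1 (10.4% ± 0.707 and 8.0% ± 2.50) overlapped between the conditions. These shares are parts of a sum, so they are not independent of each other.

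Ratios between the better measured members were tested in 3 pairs with an exact two-sided permutation test, which cannot give a p under 0.1 with 3 libraries against 3. The log2 ratio of GBP2 to GBP3 was lower in siSFPQ by a difference of -0.45 (exact p = 0.1, the smallest possible; adjusted p = 0.30), and the libraries did not overlap. The log2 ratio of GBP1 to GBP3 differed by -0.49 (exact p = 0.3, adjusted p = 0.45) with overlap. That of GBP1 to GBP2 differed by -0.03 (exact permutation p = 0.9, adjusted p = 0.90). No ratio passed the test.

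The other GBP genes of the cluster gave few reads. GBP7 had 0 counts in all 6 libraries. GBP6 had 0, 0 and 0 counts in siCTRL and 0, 3 and 1 in siSFPQ, all within the limit of 3 counts, and was not tested. GBP1P1 (ENSG00000225492), an annotated transcribed pseudogene of GBP1 on the plus strand at 89410319 to 89426243, had 35, 44 and 38 counts in siCTRL and 68, 53 and 58 in siSFPQ. Its siSFPQ libraries all lay above its siCTRL libraries, at normalized counts of 39.1 ± 4.54 and 59.7 ± 9.39 (SD, n = 3 each) and a log2 fold change of 0.61 (SE 0.24, adjusted p = 0.0365, edgeR). The call was lost in DESeq2 (adjusted p = 0.0918), without a count filter (adjusted p = 0.0566, edgeR) and in 4 of the 6 fits that left out a library.

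Near-identical sequence could let reads of a gene be counted for another. Of all 50-base stretches in annotated transcripts, 27.9% of those of GBP1P1 occur in another GBP gene, as do 8.82% for GBP2, 7.71% for GBP1, 4.41% for GBP3, 0.308% for GBP4 and 0% for GBP5. At 150 bases, the length of a read, 6.52% for GBP2, all of it with GBP7, and 0% for GBP1, GBP3, GBP4, GBP5 and GBP1P1 were shared. How the counting treated reads shared between genes was not tested. The strand setting of the counting was not given, and the antisense RNAs that overlap exons of GBP4 and GBP5 had 0 counts in every library.

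Of 7 genes that flank the cluster, 2 were higher (28.6%, near the 22.4% of all genes tested), 3 were lower (42.9%, against 22.1%) and 2 were not called, with a median log2 fold change of 0.06. RBMXL1, a gene for an RNA-binding protein that sits next to GBP3, rose from 2461 ± 77.7 to 3713 ± 76.6 normalized counts, a log2 fold change of 0.59 (adjusted p = 9.88e-14, edgeR). On the other side LRRC8B rose by 0.44 on the log2 scale (adjusted p = 8.44e-09, edgeR), while its paralogue LRRC8D, like LRRC8B a subunit of volume-regulated anion channels, fell by 1.10 (adjusted p = 5.31e-11, edgeR). LRRC8C and PKN2 were also lower, at log2 fold changes of -0.29 and -0.13. GTF2B, at 0.06, and KYAT3, at 0.09, did not pass the test.

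**Figure D3:**
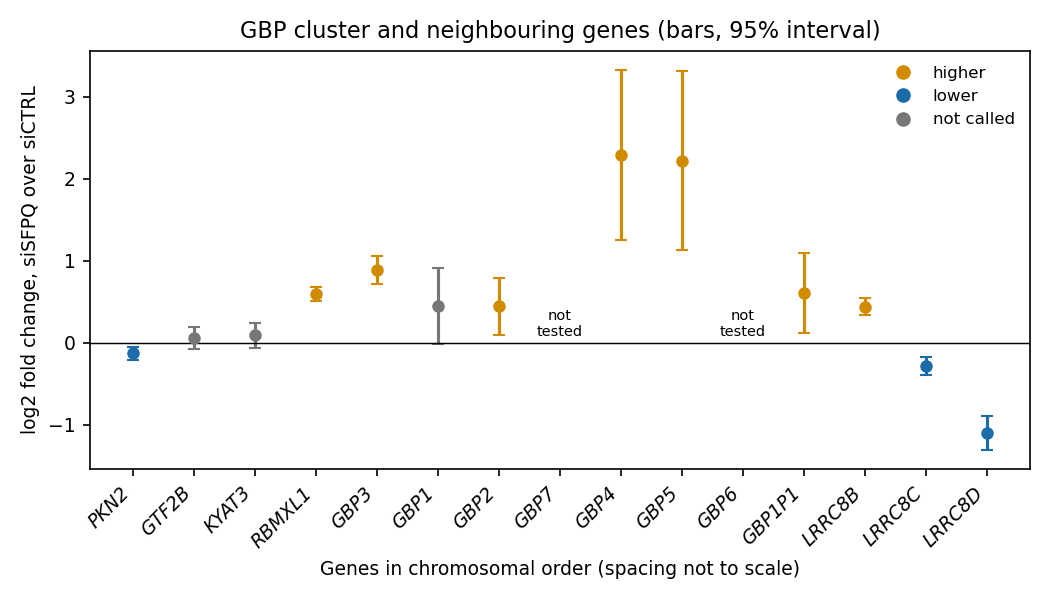
Log2 fold changes of siSFPQ over siCTRL, with 95% intervals, for the GBP genes and their neighbours in chromosomal order. Orange marks genes called higher, blue genes called lower and grey genes not called; GBP4 at 2.29 and GBP5 at 2.22 stand above all neighbours, and LRRC8D at -1.10 is the lowest.

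Interferon ligands were at or near 0. IFNG and IFNB1 had 0 counts in every library, which allows up to 0.0637 to 0.069 CPM per library. Of 13 ligand and receptor genes, 7 were tested, with a median log2 fold change of -0.03. Of these, 3 were higher (42.9%, against 22.4% of all genes tested) and 2 lower (28.6%, against 22.1%). IFNE, 1 of the lower genes, had 2, 4 and 4 counts in siCTRL and 0 in each siSFPQ library. In DESeq2 and in each fit that left out a library, only 1 gene of the list was lower. The ligand-binding chain of the interferon-gamma receptor, IFNGR1, rose from 1954 ± 134 to 2590 ± 31.8 normalized counts (log2 fold change 0.41, adjusted p = 1.92e-08, edgeR), and the signalling chain, IFNGR2, fell from 2876 ± 162 to 2534 ± 55.5 (log2 fold change -0.18, adjusted p = 0.00139, edgeR). IFNLR1, the receptor chain for interferon-lambda, rose by 1.12 on the log2 scale. The receptor genes thus did not move one way.

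The kinases that carry the interferon-gamma signal showed log2 fold changes near 0: -0.03 for JAK1 (adjusted p = 0.622, edgeR) and 0.03 for JAK2 (adjusted p = 0.779, edgeR). Among 11 kinase and inhibitor genes, 3 were higher and 3 lower (27.3% each, near the 22.4% and 22.1% of all genes tested). The 2 largest falls were of inhibitors of this signal. SOCS1, which blocks the JAK kinases, fell from 397 ± 63.9 to 176 ± 11.7 normalized counts (log2 fold change -1.17, adjusted p = 3.41e-10, edgeR). PTPN2, a phosphatase that removes phosphate from JAK1, fell from 2714 ± 134 to 1232 ± 23.8 (log2 fold change -1.14, adjusted p = 2.79e-19, edgeR). Other inhibitors went both ways. CISH, PTPN1 and SOCS3 were called higher, at log2 fold changes of 0.65, 0.33 and 0.13. PIAS1 was called lower, at -0.37.

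Of 15 transcription factors known to act on GBP promoters, 9 were higher (60%, against 22.4% of all genes tested) and 2 lower (13.3%, against 22.1%). The other 4 were not called, and the median log2 fold change of the list was 0.30. IRF1, which drives GBP transcription, rose from 326 ± 27.9 to 649 ± 66.9 normalized counts without overlap (log2 fold change 0.99, SE 0.09, adjusted p = 5.02e-11, edgeR). IRF8 rose from 246 ± 43.0 to 429 ± 42.8 (log2 fold change 0.80, adjusted p = 2.87e-07, edgeR). Of the NF-kB subunits, NFKB1, NFKB2, RELA and RELB were called higher, at log2 fold changes of 0.30, 0.79, 0.29 and 0.57, and REL lower, at -0.28. STAT2, IRF2 and IRF9 did not pass the test, at log2 fold changes of 0.03, 0.08 and 0.31.

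Of 45 other targets of interferon-gamma, some of which, such as IRF1 and SOCS1, are also in the lists above, 40 were tested and 25 of these (62.5%, against 22.4% of all genes tested) were higher, 3 (7.5%, against 22.1%) lower and 12 not called. Their median log2 fold change was 0.39, and 0.35 with genes at or under 3 counts in a condition set to their bound. The largest rises among genes above 1 CPM were those of APOL3, an apolipoprotein L that permeabilizes bacteria coated by GBP1, and PSMB9, an immunoproteasome subunit. APOL3 rose from 29.4 ± 8.66 to 140 ± 6.34 normalized counts (log2 fold change 2.25, adjusted p = 5.06e-11, edgeR). PSMB9 rose from 186 ± 22.8 to 564 ± 24.0 (log2 fold change 1.60, adjusted p = 3.79e-15, edgeR). SOCS1 and ETV7 were among the lower genes. CXCL10, also on this list, was in a gene group that the study drew from these libraries, so its rise is not independent evidence.

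The list of 11 inflammasome and host defence genes that work with GBPs had 7 higher genes (63.6%, against 22.4% of all genes tested), 0 lower (against 22.1%) and 4 not called, with a median log2 fold change of 0.76. It shares APOL3 with the list above. CASP1, the protease of canonical inflammasomes, rose from 30.4 ± 10.7 to 72.5 ± 18.5 normalized counts (log2 fold change 1.25, adjusted p = 0.000186, edgeR). NLRP3, an inflammasome sensor, and IL18, a cytokine that inflammasomes release in active form, were higher at log2 fold changes of 0.76 and 0.58. CASP4, the caspase that GBPs recruit, differed by -0.05 on the log2 scale and was not called (adjusted p = 0.51, edgeR). AIM2 and IL1B, at 3 counts or fewer in each siCTRL library, were also called, and AIM2 is in a gene group the study drew from these libraries.

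**Figure D4:**
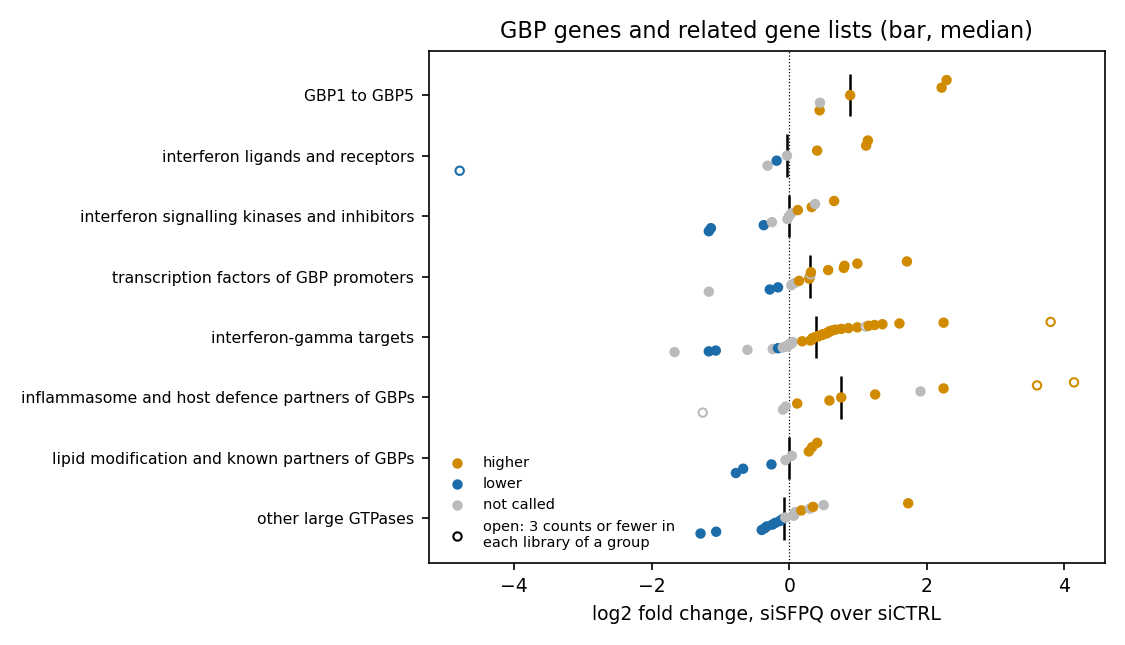
Log2 fold changes of siSFPQ over siCTRL for GBP1 to GBP5 and for 7 related gene lists, with a point for each gene tested and a bar at the median. Orange marks genes called higher, blue genes called lower and grey genes not called; open points had 3 counts or fewer in every library of a condition, where the fitted value depends on the prior count. The medians of the GBP genes (0.89) and of the inflammasome genes (0.76) lie furthest to the right.

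Markers of other cells were checked because GBP genes are high in immune and endothelial cells. Of 12 leukocyte markers, 5 had 3 counts or fewer in every library of both conditions, among them CD3E, CD68, LYZ and FCGR3A, the last with 0 counts. The summed leukocyte markers were at 2.06 to 2.25 CPM in siCTRL and 2.61 to 3.56 CPM in siSFPQ. Of 7 tested, 3 were higher (42.9%, against 22.4% of all genes tested) and 1 lower (14.3%, against 22.1%). CD3D, ITGAM and CSF1R were called higher, at log2 fold changes of 1.77, 2.21 and 0.75. PTPRC was called lower, at -1.61, and each of these genes was below 1 CPM on average. Of 8 endothelial markers, 2 were higher (25%, near the 22.4% of all genes tested) and 3 lower (37.5%, against 22.1%). The summed endothelial markers were at 18.3 to 20.3 CPM in siCTRL and 9.66 to 10.5 CPM in siSFPQ. ERG, at 9.68 CPM in siCTRL and 0.532 CPM in siSFPQ (log2 fold change -4.18), made up most of that difference, and VWF was higher at a log2 fold change of 0.53. The part of either in the GBP values was not tested. Of 9 osteoblast markers, SP7, IBSP and BGLAP were at or near 0, while RUNX2, COL1A1 and SPARC were abundant, and the sum was 5059 to 5390 CPM in siCTRL and 4313 to 4346 CPM in siSFPQ. Of the 7 tested, 1 was higher (14.3%, against 22.4% of all genes tested) and 3 lower (42.9%, against 22.1%). SPP1, COL1A1 and SPARC were called lower, at log2 fold changes of -1.33, -0.35 and -0.17. BGLAP was called higher from 3 counts or fewer in each siCTRL library.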

How the data were processed

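Polyadenylated RNA of 6 libraries (3 siCTRL, 3 siSFPQ) was sequenced in read pairs of 150 bases. The authors deposited a table of raw counts for each Ensembl gene, quantified with STAR 2.7.9a on GRCh38 after FastQC; the strand setting of the counting was not given in the sources used here. Kits are named differently, as TruSeq RNA in the labels and as a stranded kit in the study's methods. All columns were used (0 unused), and 0 rows named no gene. Names and spans were taken from GENCODE 44 (99.67% of genes matched), promoters from RefSeq.

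Genes with at least 10 counts in total (29022) entered the quasi-likelihood test of edgeR 4.0.16 (R 4.3.3), with TMM scaling and no covariate, with Benjamini-Hochberg adjustment over all of them. The test was checked on simulated counts. Alternatives were DESeq2 1.42.0, RLE or library size alone, other count filters, a replicate block and leaving out each library. Members and the 12 gene lists were chosen with earlier results of these data known. The genes named are SFPQ, the GBP genes and, of each list, the 2 largest rises and falls called at a mean of at least 1 CPM, plus STAT2, IRF1, IRF2, IRF9, IFNG, IFNGR1, IFNGR2, JAK1 and JAK2, and the 5 genes most like GBP3; further list members were named after their values were seen. Some genes that this rule gives are not reported here.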

Additional observations from a re-analysis of the deposited data

How the results depend on the processing

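GBP3, GBP4 and GBP5 were called higher in each of the 12 other fits. Leaving out each library in turn gave log2 fold changes of 0.82 to 0.93 for GBP3, 1.92 to 3.00 for GBP4, 2.02 to 2.39 for GBP5, 0.32 to 0.57 for GBP2 (called in 3 of 6 fits) and 0.19 to 0.63 for GBP1 (called in 1 of 6, without siSFPQ replicate 2). GBP2 in DESeq2 was at 0.44 with its call lost. The cause was not tested. The log2 difference in the ratio of GBP1 to GBP2 ran from -0.22 to 0.074, and turned upward to 0.044 without siCTRL replicate 1, 0.039 without siSFPQ replicate 2 and 0.074 without siSFPQ replicate 3. The GBP1 to GBP3 difference ran from -0.76 to -0.24, and that of GBP2 to GBP3 from -0.54 to -0.28. With the limit of 1.5 on the log2 fold change, 2 GBP genes, 1609 genes higher and 1384 lower were called. Without that limit, 6514 and 6421 genes were called. Counts over the gene lists moved by over 1.5 times in 22 cases and by less in 266.

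Whether replicate numbers pair the siCTRL and siSFPQ libraries could not be decided from 3 libraries in each condition. Same-numbered libraries had correlations of -0.00327, 0.0881 and 0.0547 between their deviations, and differently numbered libraries had -0.0799 to 0.0252. Replicates 2 and 3 correlated best with their own number, and replicate 1 did not. A fit with a replicate block gave log2 fold changes of 0.42 for GBP1, 0.44 for GBP2, 0.89 for GBP3, 2.35 for GBP4 and 2.22 for GBP5. It changed no call of a GBP gene.

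Depth limits GBP4 and GBP5 most, whose siCTRL libraries held 2 to 9 and 3 to 5 counts.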

Other observations

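A list of 18 genes held other large GTPases, from the dynamin, atlastin, mitofusin, MX and IRG families, and the EHD ATPases. Of these genes, 3 were higher (16.7%, against 22.4% of all genes tested) and 9 lower (50%, against 22.1%). The other 6 were not called, and the median log2 fold change was -0.08. Library size as the only scaling gave 6 higher and 7 lower, and a replicate block gave 5 higher and 9 lower. MX2, an interferon-induced relative that restricts retroviruses, was at 27.0 ± 6.04 normalized counts in siCTRL and 89.9 ± 26.9 in siSFPQ (SD, n = 3), called higher with a log2 fold change of 1.73, and belongs to a gene group the study drew from these libraries. EHD1, a membrane remodelling ATPase of endosomes, was higher at a log2 fold change of 0.35. DNM3, a dynamin, and EHD3 were lower at -1.29 and -1.06. ATL1, an atlastin, the family closest to GBPs in structure, was lower at -0.36.

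Of 8 genes for enzymes that attach lipid to GBPs, and for known partners, 3 were higher, 3 lower and 2 not called. The calls made up 37.5% each way, against 22.4% higher and 22.1% lower among all genes tested. The shared alpha subunit of the prenyltransferases, FNTA, was higher at a log2 fold change of 0.33, the beta subunit of farnesyltransferase, FNTB, was lower at -0.67, and that of the geranylgeranyl enzyme, PGGT1B, differed by 0.04 without a call. PIM1, the kinase whose phosphorylation of GBP1 holds it inactive, was lower at -0.78. FURIN, the protease that GBP2 and GBP5 restrain, was higher at 0.41.

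The genes whose log2 CPM followed GBP3 most closely over the 6 libraries, among 15619 genes above 1 CPM, were PSMD5 (Pearson's r = 0.999), CCAR1 (0.999), KRT17 (0.999), SF3A3 (0.999) and IFT122 (0.998). The 6 points fall into the 2 conditions, and 2185 genes had r over 0.95 with GBP3.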
